A study of Homo sapiens with 60 samples.

Results

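Messenger RNA of 10 carriers that move amino acids across the plasma membrane was measured in HT29 cells treated with herbal extracts. HT29 is an established line from a human colorectal adenocarcinoma. The 10 genes, SLC3A2, SLC7A5, SLC7A7, SLC7A1, SLC38A1, SLC38A2, SLC38A4, SLC38A11, SLC6A20 and SLC1A5, were found by matching their symbols to Ensembl gene IDs, 1 row each, among the 60675 rows of the table. SLC7A11, the cystine importer, was left out of the set by its definition and is treated with the other carriers. The genes were chosen by their CPM (counts scaled to a common library total) and fold changes in these same libraries, so fold changes and adjusted p-values of the 10 genes say where each stood in a model of all genes and are no independent evidence.

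The libraries were made after 24 h with 1 of 8 extracts at 3 doses each, or with the vehicle. Soshiho-tang and Yijin-tang are multi-herb decoctions extracted with water, and Schisandrae Fructus, Liriopis seu Ophiopogonis Tuber, Zizyphi Semen, Longan Arillus, Aucklandiae Radix and Polygalae Radix were ethanol extracts of 1 herb each. Doses were 20, 100 and 500 µg/mL (low, medium, high), except 14.8, 74 and 370 µg/mL of Aucklandiae Radix and 15.2, 76 and 380 µg/mL of Polygalae Radix. Each dose had 3 libraries, apart from Soshiho-tang with 2 (numbered 2 and 3) and both Aucklandiae Radix and Polygalae Radix with 1. The vehicle group (n = 3) received DMSO, given as 0.1% in the sample labels and as 2% in the description of the series, which could not be settled. All groups are the same cell line in the same growth medium. The labels do not say that replicates were separate cultures, so p-values measure only the spread between these libraries. Vehicle libraries belong to library set C1 and extract libraries to sets 8 to 11, so extract and library set cannot be told apart in a comparison with the vehicle, while a high and a low dose of 1 extract share a set.

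Amino acid carriers supply protein synthesis, redox buffering and the mTORC1 kinase, which senses amino acids at the lysosome. SLC3A2 (4F2hc, CD98) is a heavy chain that carries no amino acid itself and brings light chains such as SLC7A5 (LAT1, exchange of large neutral amino acids) and SLC7A7 (y+LAT1, export of cationic for neutral amino acids) to the cell surface. SLC7A1 (CAT1) takes up arginine and lysine. SLC38A1, SLC38A2 and SLC38A4 (SNAT1, SNAT2 and SNAT4) are sodium-coupled carriers of small neutral amino acids, and SLC38A11 belongs to the same family. SLC6A20 (SIT1) takes up proline and other imino acids in intestine and kidney, and SLC1A5 (ASCT2) exchanges glutamine. When amino acids run short, the kinase GCN2 (EIF2AK4) raises translation of the transcription factor ATF4, and SLC3A2, SLC7A5, SLC7A1, SLC38A2 and SLC7A11 are known targets of ATF4.

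All 10 genes are protein coding and are placed here on GRCh38 by GENCODE release 29. The heavy chain gene SLC3A2 (ENSG00000168003) lies on chromosome 11, from 62856102 to 62888875. Of the light chains, SLC7A5 (ENSG00000103257) spans 87830023 to 87869488 of chromosome 16 and SLC7A7 (ENSG00000155465) spans 22773222 to 22829820 of chromosome 14. SLC7A1 (ENSG00000139514) is at 29509410 to 29595688 of chromosome 13. SLC38A1 (ENSG00000111371, 46183063 to 46270017), SLC38A2 (ENSG00000134294, 46358189 to 46372867) and SLC38A4 (ENSG00000139209, 46764761 to 46832408) follow each other on the same strand of chromosome 12, 88.2 kb and 392 kb apart. SLC38A11 (ENSG00000169507) is on chromosome 2, from 164896186 to 164955525. SLC6A20 (ENSG00000163817) is on chromosome 3, from 45755450 to 45796535, and SLC1A5 (ENSG00000105281) on chromosome 19, from 46774883 to 46788594. An antisense gene that overlaps SLC1A5 averaged 2.26 CPM over all 60 libraries. The genes that overlap the other carriers averaged at most 0.408 CPM. The libraries were stranded, but whether counting used the strand is not stated, so reads of overlapping genes may not be fully separated.

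The letters before the annotated start are shown for the 5 genes that passed the call or fold line at the high dose of both Soshiho-tang and Aucklandiae Radix, of which the first 4 were higher and SLC38A11 was lower than with the vehicle. They are RefSeq sequences of GRCh38.p14, 5′ to 3′ on the gene's strand, without transcribed bases, and cover chr11:62855859-62856101 (SLC3A2, plus strand), chr16:87869508-87869757 (SLC7A5, minus), chr12:46372868-46373023 (SLC38A2, minus), chr19:46788595-46788844 (SLC1A5, minus) and chr2:164955526-164955775 (SLC38A11, minus). Capitals mark matches on either strand to the searched motifs TGATGNAA (core of the C/EBP-ATF element), TGACNNNGC (core of the antioxidant response element) and GCGTG (core bound by the aryl hydrocarbon receptor).
SLC3A2: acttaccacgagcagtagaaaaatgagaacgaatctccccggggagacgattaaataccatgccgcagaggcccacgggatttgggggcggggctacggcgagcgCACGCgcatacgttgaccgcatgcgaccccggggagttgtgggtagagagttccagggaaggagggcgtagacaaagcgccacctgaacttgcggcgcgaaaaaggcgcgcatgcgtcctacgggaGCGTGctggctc
SLC7A5: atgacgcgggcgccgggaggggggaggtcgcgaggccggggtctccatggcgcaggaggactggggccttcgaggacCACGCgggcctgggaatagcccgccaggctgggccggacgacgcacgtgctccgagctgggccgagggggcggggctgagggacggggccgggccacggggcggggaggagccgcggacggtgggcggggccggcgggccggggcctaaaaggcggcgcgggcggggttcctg
SLC38A2: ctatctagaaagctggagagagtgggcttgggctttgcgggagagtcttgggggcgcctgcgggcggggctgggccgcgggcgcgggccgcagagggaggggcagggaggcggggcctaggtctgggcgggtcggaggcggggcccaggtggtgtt
SLC1A5: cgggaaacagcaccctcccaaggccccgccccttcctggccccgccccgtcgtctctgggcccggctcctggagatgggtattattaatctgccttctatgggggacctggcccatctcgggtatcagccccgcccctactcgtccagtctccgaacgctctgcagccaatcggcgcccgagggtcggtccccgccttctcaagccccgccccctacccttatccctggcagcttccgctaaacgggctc
SLC38A11: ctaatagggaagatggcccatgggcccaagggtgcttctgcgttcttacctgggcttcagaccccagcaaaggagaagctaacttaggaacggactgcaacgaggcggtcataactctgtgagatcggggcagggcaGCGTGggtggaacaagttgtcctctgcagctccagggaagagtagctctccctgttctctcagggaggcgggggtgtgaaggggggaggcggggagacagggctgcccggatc
RefSeq gave 17 windows of 250 bases before a start for the 10 genes, all of which had at least 1. TGATGNAA was found in 1 of 17 windows, as TGATGCAA with its first base 97 before an internal start of SLC1A5, against 3.14% of 35114 windows of all genes. TGACNNNGC was found in 4 of 17 windows, against 10.9% of all windows, among them TGACTCAGC at 37 bases before an internal start of SLC3A2. GCGTG was found in 7 of 17 windows, against 32.2% of all windows. The printed windows of SLC38A2 and SLC1A5 held none of the 3 motifs. A match here is a run of letters and no evidence of a bound factor.

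Library totals ran from 18161717 to 35128954 expected counts. The 10 markers of colon epithelium and HT29 identity were all detected and summed to between 8409 and 18240 CPM per library. Markers of leukocytes and erythroid cells summed to 14.1 and 9.72 CPM in Soshiho-tang high dose replicate 3, and to at most 2.63 and 0.329 CPM in the other libraries. Yijin-tang low dose replicate 2 stood apart from its group, with an SD of log2 deviations over genes of 0.83, against at most 0.257 for the 45 libraries of the other groups of 3. Calls of the 10 carriers that rest on either library are given with and without both, as are their calls that change in other comparisons when both are left out. Fold changes of all other genes, and most correlations, are given with both libraries only.

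The carriers differed widely in level under the vehicle. Per kilobase of exon, SLC1A5 was highest at 228 CPM per kb, followed by SLC7A1 at 78.7 and SLC7A5 at 70.9 CPM per kb, whose 3 libraries overlapped. SLC38A1 at 34.6, SLC3A2 at 31.1 and SLC38A2 at 22.3 CPM per kb came next. SLC7A7 at 3.67, SLC38A11 at 2.06, SLC6A20 at 1.02 and SLC38A4 at 0.712 CPM per kb were low. Across the means of all 25 groups, 3 of these 4 low carriers varied most, by 48.0-fold between the highest and lowest mean for SLC38A11, 12.5-fold for SLC38A4 and 4.37-fold for SLC6A20. The other one, SLC7A7, varied least of the 10, by 1.24-fold, and SLC7A1 varied by 1.48-fold. The lowest means of SLC38A11 and SLC38A4, and both extremes of SLC6A20, come from groups of 1 library. Over the 19 replicated groups, means ran from 4.60 to 14.25 CPM for SLC38A11 and from 2.73 to 5.30 CPM for SLC38A4. For SLC6A20 they ran from 4.17 to 6.79 CPM. These levels are shares of the messenger RNA in a bulk sample, in which fewer cells of a type and less RNA per cell cannot be told apart.

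**Figure D1:**
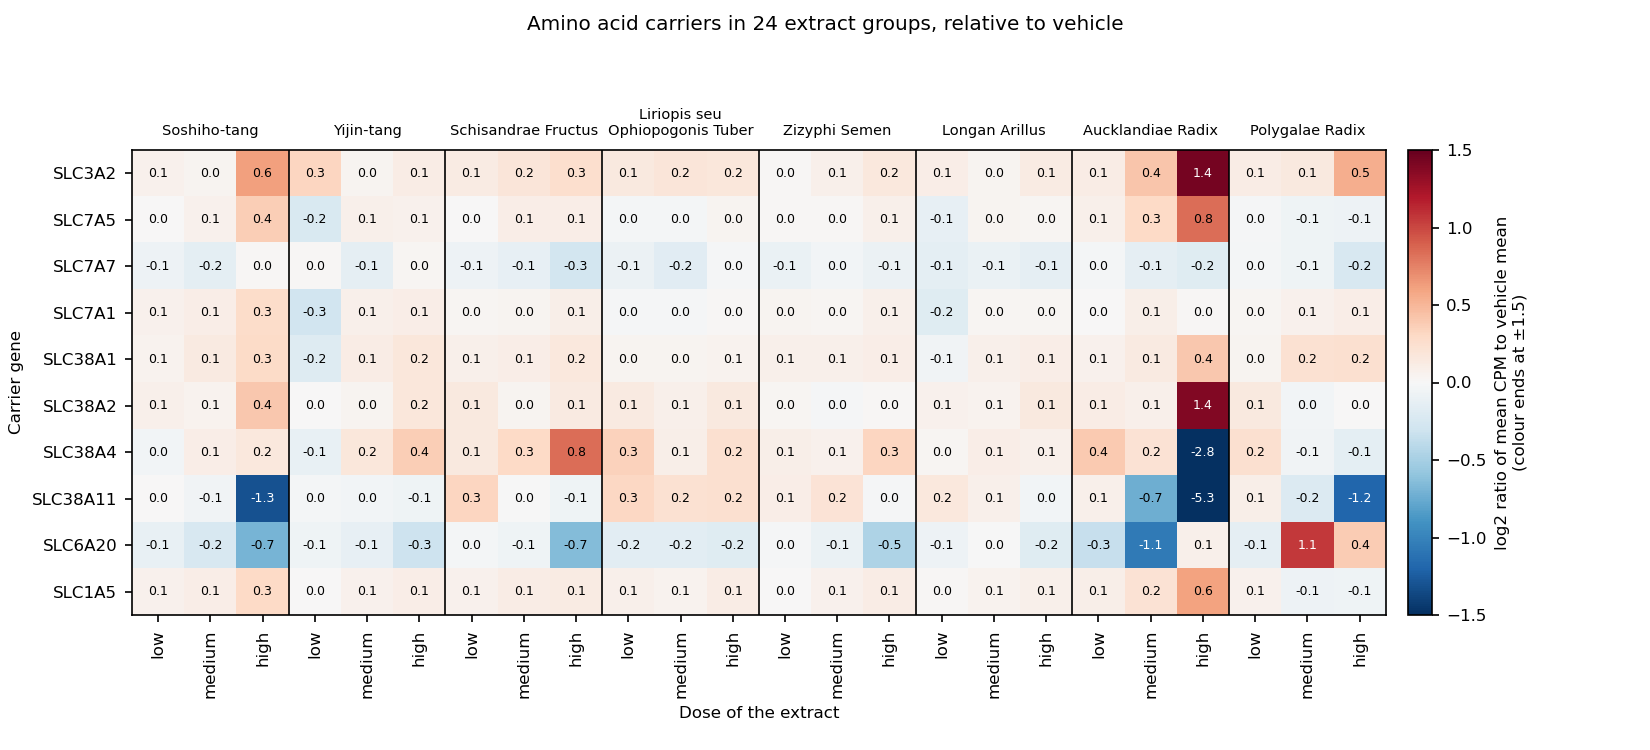
log2 ratio of the mean CPM in each of 24 extract groups to the vehicle mean, for the 10 carriers (rows), with doses from low to high within each extract (columns). The colour scale ends at ±1.5 and the number in each cell is the log2 ratio, with the values farthest from 0 at the high doses of Aucklandiae Radix and Soshiho-tang.

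Among the extracts with replicates, the high dose of Soshiho-tang moved the most carriers: SLC3A2, SLC38A2, SLC7A5 and SLC1A5 rose and SLC38A11 and SLC6A20 fell against the vehicle. These are 6 of 10 carriers, where 7.93% of all 16890 genes tested were called at a Benjamini-Hochberg adjusted p under 0.05 in edgeR's quasi-likelihood test. Of all genes 4.17% were called higher and 3.76% lower. The median log2 fold change of the 10 was 0.29, and that of all genes tested was 0.00.

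The heavy chain SLC3A2 was at 257.5 and 237 CPM with the high dose of Soshiho-tang, against 168, 162 and 153 CPM with the vehicle. Its log2 fold change was 0.62 ± 0.09 (SE), a rise of 1.54-fold (adjusted p = 3.28e-06, edgeR). The light chain SLC7A5 was at 436 and 434 CPM with the extract, against 363, 315 and 331 CPM with the vehicle. For neither gene did the groups overlap, but SLC7A5 rose less, by 0.37 ± 0.12 on the log2 scale (adjusted p = 0.04, edgeR). Only 7 of 12 alternative settings called SLC7A5. Among those that did not were the fit without replicate 3 and that with only these 2 groups (adjusted p = 0.0633 in the latter, edgeR). With 1 library left out at a time its log2 fold change ran from 0.33 to 0.43. The other light chain, SLC7A7, was at 17.9 and 20.3 CPM with the extract, against 19.3, 18.1 and 19.1 CPM with the vehicle, which overlap.

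SLC38A2 was at 191 and 200.2 CPM with the high dose of Soshiho-tang, against 153, 149 and 139.8 CPM with the vehicle, and rose by 0.41 ± 0.08 on the log2 scale (adjusted p = 0.000222, edgeR). The glutamine exchanger SLC1A5 was at 964 and 906 CPM with the extract, against 777, 734 and 768 CPM with the vehicle, a log2 rise of 0.30 ± 0.06 (adjusted p = 0.000238, edgeR). Both extract libraries lay above all vehicle libraries for these carriers. With only these 2 groups in the fit SLC1A5 was not called (adjusted p = 0.116). SLC38A1, a close relative of SLC38A2, was at 430.2 and 418 CPM with the extract, against 328, 362 and 349 CPM with the vehicle, and SLC7A1 was at 779.6 and 689.8 CPM, against 661, 559 and 596 CPM. Neither pair of groups overlapped, yet neither gene was called (log2 fold changes 0.29 ± 0.13 and 0.28 ± 0.17, adjusted p = 0.19 and 0.387, edgeR).

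SLC38A11 was at 4.33 and 4.88 CPM with the high dose of Soshiho-tang, against 11.4, 11.97 and 10.8 CPM with the vehicle. It fell by 1.301 ± 0.11 on the log2 scale, to 0.406 of the vehicle level (adjusted p = 3.20e-12, edgeR), which is the widest difference among the 10 in this comparison. SLC6A20 was at 4.38 and 3.96 CPM with the extract, against 6.15, 7.48 and 6.74 CPM with the vehicle, and fell by 0.71 ± 0.13 on the log2 scale (adjusted p = 0.000149, edgeR). SLC38A4, at 3.31 and 3.29 CPM with the extract and 2.75, 2.77 and 3.34 CPM with the vehicle, overlapped.

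In a fit without Soshiho-tang high dose replicate 3 and Yijin-tang low dose replicate 2, in which 1 Soshiho-tang library is assumed to vary like the other groups, 8 of 10 carriers were called and 12.4% of all 17330 genes tested. All 6 calls above were among them, with log2 fold changes of 0.68 for SLC3A2, 0.38 for SLC7A5, 0.38 for SLC38A2, 0.35 for SLC1A5, -1.39 for SLC38A11 and -0.63 for SLC6A20. SLC38A1 at 0.32 and SLC7A1 at 0.37 joined them (adjusted p = 2.62e-05 and 2.61e-05, edgeR).

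The lower doses of Soshiho-tang did not move the carriers past the threshold. SLC3A2 averaged 169 ± 5.3 CPM at the low, 165 ± 5.16 CPM at the medium and 247 ± 14.4 CPM at the high dose (SD, n = 2 each). SLC38A11 averaged 11.5, 11.0 and 4.60 CPM at the low, medium and high dose. None of the 10 was called at the low dose (0.101% of all genes called) or the medium dose (0.237%). For both genes the high dose libraries lay outside the libraries of the medium and low doses.

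**Figure D2:**
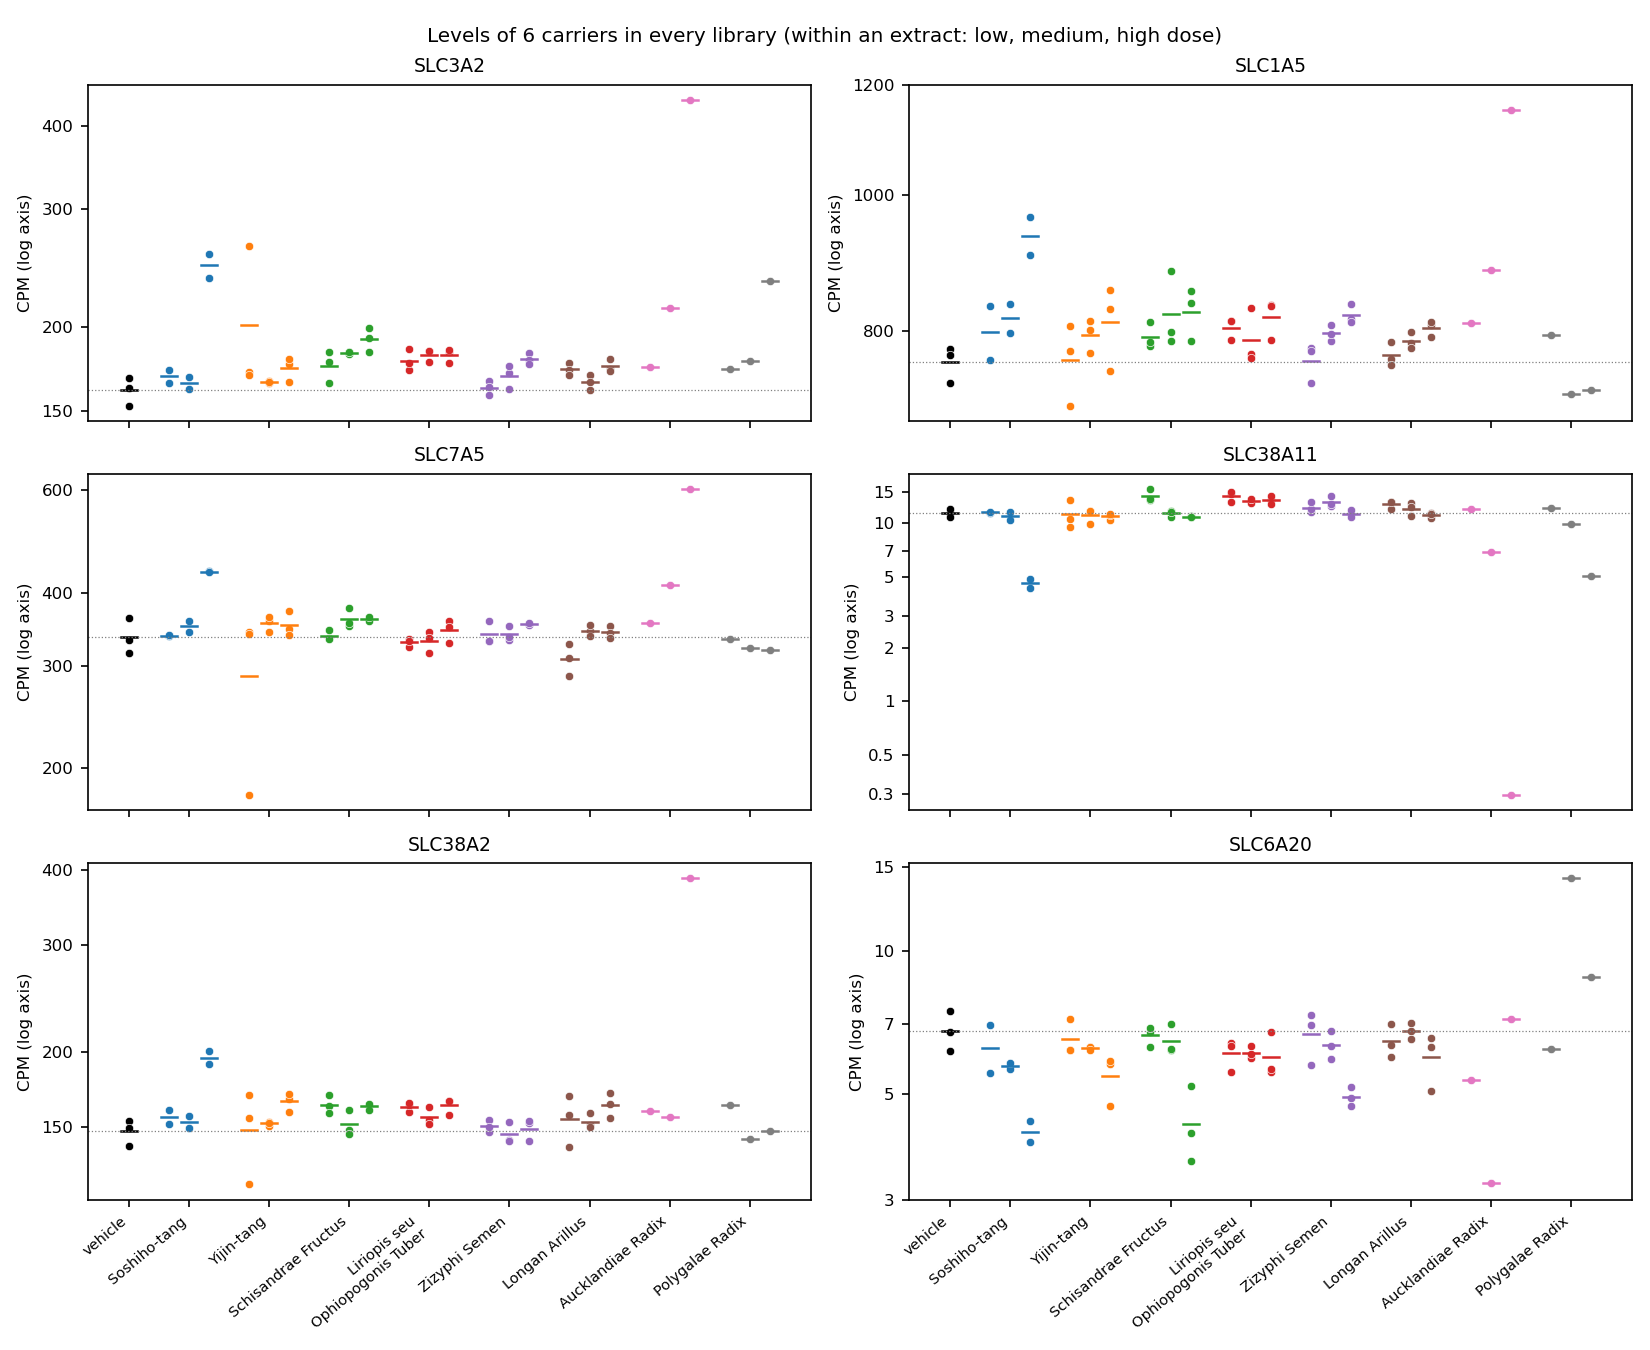
CPM (log axis) of 6 carriers in all 60 libraries, with a point per library, a bar at each group mean, a dotted line at the vehicle mean, and low, medium and high doses from left to right within each extract. SLC3A2 stands highest in the Aucklandiae Radix high dose library at 437 CPM, and SLC38A11 lowest in the same library at 0.297 CPM.

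At the high dose of Schisandrae Fructus, SLC38A4 rose and SLC7A7 and SLC6A20 fell against the vehicle, 3 of 10, of which SLC6A20 also fell with Soshiho-tang. In this comparison 0.693% of all genes were called. SLC38A4 was at 4.98, 5.86 and 5.05 CPM with the extract, against 2.75, 2.77 and 3.34 CPM with the vehicle. This was a log2 rise of 0.83 ± 0.15 (adjusted p = 0.00224, edgeR), to the highest mean of SLC38A4 in any group. SLC6A20 was at 3.62, 5.20 and 4.15 CPM with the extract, against 6.15, 7.48 and 6.74 CPM with the vehicle, and fell by 0.67 ± 0.11 (adjusted p = 0.000533, edgeR). SLC7A7 was at 15.8, 15.4 and 15.4 CPM, against 19.3, 18.1 and 19.1 CPM, a fall of 0.28 ± 0.06 (adjusted p = 0.00477, edgeR). None of these groups overlapped, and the share of all genes without overlap was not counted. SLC7A7 was not called when genes with low counts were kept in the fit (adjusted p = 0.264), and neither SLC7A7 nor SLC6A20 was with only these 2 groups in it (adjusted p = 0.0774 and 0.0521). SLC3A2 averaged 192 ± 8.09 CPM with the extract and 161 ± 7.82 CPM with the vehicle (SD, n = 3 each), a log2 fold change of 0.25 ± 0.08 that was not called (adjusted p = 0.174, edgeR) with all libraries and was called without the 2 libraries named above (0.26 ± 0.04, adjusted p = 4.10e-05).

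In the remaining replicated groups, 1 further value was called. SLC3A2 was at 172, 264 and 169.6 CPM with the low dose of Yijin-tang, against 168, 162 and 153 CPM with the vehicle (log2 fold change 0.32 ± 0.08, adjusted p = 0.0126, edgeR), where 12.1% of all genes were called. The highest of these is the library that stood apart, in which SLC7A1 was at 236 CPM, against 642 and 615 CPM in the other libraries of the group, and SLC38A1 at 174.5 CPM, against 378 and 358 CPM. Without it and Soshiho-tang high dose replicate 3, SLC3A2 differed by 0.08 at this dose and was not called (adjusted p = 0.358), and 1.96% of all genes were called. None of the 10 was called against the vehicle at the high dose of Yijin-tang (1.05% of all genes called), of Liriopis seu Ophiopogonis Tuber (0.45%), of Longan Arillus (0.0829%) or of Zizyphi Semen (0.16%). At their medium doses 0 of 10 were called for Yijin-tang (0.42% of all genes), Schisandrae Fructus (0.474%), Liriopis seu Ophiopogonis Tuber (0.373%), Longan Arillus (0.0118%) and Zizyphi Semen (0.0296%). At the low doses 0 of 10 were called for Schisandrae Fructus (0.16%), Zizyphi Semen (0.0355%), Liriopis seu Ophiopogonis Tuber (0.491%) and Longan Arillus (0.107%). In these 13 comparisons and the 2 lower doses of Soshiho-tang, 0 to 4 of 10 carriers had an unadjusted p under 0.05 in edgeR, and DESeq2 called 1 carrier in all. At the Zizyphi Semen high dose SLC6A20 was at 4.71, 5.18 and 4.89 CPM, against 6.15, 7.48 and 6.74 CPM with the vehicle, which do not overlap (log2 fold change -0.46 ± 0.11, adjusted p = 0.0927, edgeR).

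The fit without the 2 libraries called more of the small differences from the vehicle. SLC3A2 was called at the low, medium and high doses of Liriopis seu Ophiopogonis Tuber (log2 fold changes 0.15, 0.18 and 0.18, where 6.21%, 5.57% and 4.85% of all genes were called), the medium dose of Schisandrae Fructus (0.19, 5.8%) and the high dose of Zizyphi Semen (0.15, 3.15%). SLC38A11 was called higher at the low doses of Liriopis seu Ophiopogonis Tuber (0.32) and Schisandrae Fructus (0.31, 4.69%), and SLC6A20 lower at the high dose of Zizyphi Semen (-0.45). SLC38A1 and SLC38A2 were called at the high dose of Yijin-tang (0.17 each, 7.16%), SLC38A1 at the high dose of Schisandrae Fructus (0.17, 6.17%) and SLC7A1 at the low dose of Longan Arillus (-0.19, 4.73%). The vehicle had the lowest mean of SLC3A2 among all 25 groups, at 161 CPM, and the other means of replicated groups other than the Soshiho-tang high dose lay between 162 and 202 CPM. Extract and library set cannot be told apart in these values.

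Aucklandiae Radix and Polygalae Radix have 1 library per dose, so their values carry no replicate check and no test. A library was called past the line where its CPM, with a pseudocount of 0.5, was at least 1.5-fold above or below the vehicle mean, a line chosen after the values were seen. In the high dose library of Aucklandiae Radix 6 of 10 carriers were past it, as were 27.8% of all genes tested, and 4 were higher and 2 lower, against 12.8% and 14.9% of all genes. Endothelial and fibroblast markers summed to 9.21 and 4.03 CPM in this library, against at most 2.47 and 3.29 CPM in any other, and their part in these values was not tested. SLC3A2 was at 437 CPM in this library, against 168, 162 and 153 CPM with the vehicle, a ratio of 2.71. SLC38A2 was at 387.5 CPM, against 153, 149 and 139.8 CPM, a ratio of 2.63. These are the highest levels of both genes among all 60 libraries. SLC7A5 was at 602 CPM (ratio 1.79) and SLC1A5 at 1150 CPM (ratio 1.51, just past the line), both above every vehicle library. With library totals alone as the scale, SLC1A5 did not reach the line and 5 carriers were past it.

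In the same library SLC38A11 was at 0.297 CPM from 7 counts (95% exact Poisson interval 0.119 to 0.612 CPM, counting error only), against 11.4, 11.97 and 10.8 CPM with the vehicle. SLC38A4 was at 0.424 CPM from 10 counts (0.203 to 0.78 CPM), against 2.75, 2.77 and 3.34 CPM. Both are the lowest of all 25 groups. SLC38A1 was at 458 CPM (ratio 1.32), above the vehicle range of 328 to 362 CPM. SLC7A1 at 614.5 CPM and SLC6A20 at 7.17 CPM lay within their vehicle ranges of 559 to 661 and 6.15 to 7.48 CPM, and SLC7A7 at 16.6 CPM lay below its range of 18.1 to 19.3 CPM. SLC38A2 and SLC38A4, neighbours in the set on chromosome 12, stood on opposite sides of the vehicle in this library.

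At the lower doses of Aucklandiae Radix, SLC3A2 was at 174.5 CPM (low) and 214 CPM (medium), and SLC38A11 at 12.1 CPM (low) and 6.89 CPM (medium). From low to high dose SLC3A2 was higher and SLC38A11 lower at each step. SLC7A5 and SLC1A5 were at 412 and 884 CPM at the medium dose, above their vehicle ranges. SLC6A20 was at 5.35 CPM (low), 3.25 CPM (medium) and 7.17 CPM (high), with no steady order. The medium dose had 2 of 10 carriers past 1.5-fold, SLC38A11 and SLC6A20, both lower, where 2.58% of all genes were past it. The low dose had 0 of 10, where 1.57% of all genes were.

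With Polygalae Radix, SLC6A20 and SLC38A11 were past the line. SLC6A20 was at 14.2 CPM at the medium dose, against 6.15, 7.48 and 6.74 CPM with the vehicle (ratio 2.09), the highest value of this proline carrier in any library, and at 6.20 and 8.81 CPM at the low and high doses. It was the 1 carrier of 10 past 1.5-fold at the medium dose, where 2.48% of all genes were. At the high dose 1 of 10 was past the line, where 7.04% of all genes were: SLC38A11 was at 5.03 CPM, against 11.4, 11.97 and 10.8 CPM with the vehicle (ratio 0.44). SLC3A2 was at 234 CPM in this library (ratio 1.45, just short of the line), while SLC7A5 was at 319 CPM, within the vehicle range of 315 to 363 CPM. With library totals alone as the scale SLC3A2 was past the line too, at a log2 ratio of 0.66, and 2 of 10 carriers were. At the low dose 0 of 10 were past the line, where 1.9% of all genes were.

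The ratio of SLC7A5 to SLC3A2 mRNA, both per kilobase, was taken because the light chain needs the heavy chain at the surface. It was 1.503 in the Aucklandiae Radix high dose library, 1.487 in the Polygalae Radix high dose library, 1.85 and 2.00 at the high dose of Soshiho-tang, and 2.28 ± 0.141 with the vehicle (SD, n = 3; range 2.12 to 2.37). These 4 libraries lay below all vehicle libraries, as did 28 of the 57 extract libraries in all. Among the 28 were all 3 libraries at the low dose of Liriopis seu Ophiopogonis Tuber, all 3 at its medium dose and all 3 at the low dose of Longan Arillus, some of them below the values of Soshiho-tang. Yijin-tang low dose replicate 2, which stood apart, had the lowest ratio at 0.744, against 2.18 and 2.19 in the other libraries of its group. Longan Arillus at the low dose averaged 1.94 ± 0.151 (SD, n = 3), with SLC7A5 lower and SLC3A2 higher on average than with the vehicle and neither called.

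**Figure D3:**
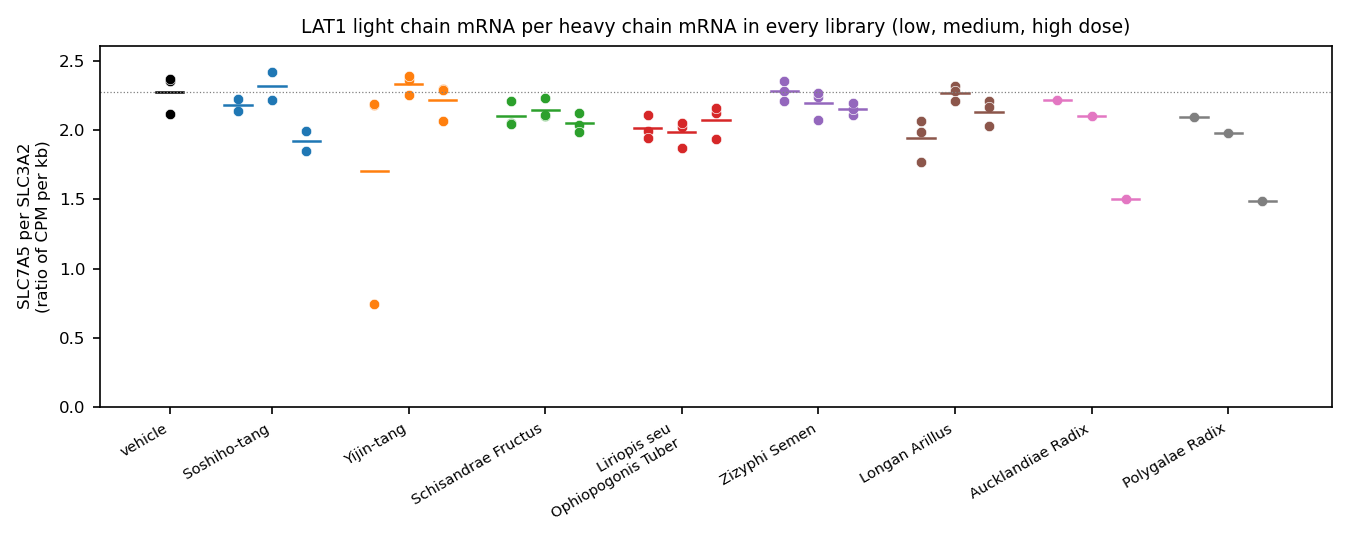
SLC7A5 per SLC3A2 as the ratio of CPM per kb in all 60 libraries, with a point per library, a bar at each group mean and a dotted line at the vehicle mean of 2.28. The high dose libraries of Aucklandiae Radix (1.503), Polygalae Radix (1.487) and Soshiho-tang (1.85 and 2.00) lie below the vehicle range, as do 28 of 57 extract libraries in all.

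A high dose was also set against the low dose of the same extract, a comparison without vehicle libraries and within 1 library set. For Soshiho-tang 5 of 10 carriers were called, where 6.29% of all genes were. SLC3A2 rose by 0.55 ± 0.10, SLC38A2 by 0.33 ± 0.08 and SLC1A5 by 0.23 ± 0.06, and SLC38A11 fell by 1.31 ± 0.11 and SLC6A20 by 0.59 ± 0.14 on the log2 scale (adjusted p = 0.000182, 0.0106, 0.0166, 2.79e-11 and 0.00526, edgeR). SLC7A5, at 436 and 434 CPM at the high and 337 and 338 CPM at the low dose, did not overlap and was not called (0.36 ± 0.13, adjusted p = 0.088). Without the 2 libraries SLC6A20 was no longer called (adjusted p = 0.0752), SLC7A5, SLC38A1 and SLC7A1 were, and 7.84% of all genes were. Of 11 alternative settings, 7 called SLC1A5, 7 called SLC6A20 and 6 called SLC38A2. Among the fits that lost a call were those without low dose replicate 2 (SLC1A5 and SLC38A2) and without low dose replicate 3 (SLC6A20). With 1 library left out at a time, log2 fold changes were 0.17 to 0.29 for SLC1A5, 0.29 to 0.37 for SLC38A2 and -0.75 to -0.41 for SLC6A20. With only these 2 groups in the fit SLC1A5, SLC38A2 and SLC6A20 were not called (adjusted p = 0.312, 0.104 and 0.138), and without the filter on low counts SLC1A5 and SLC38A2 were not (adjusted p = 0.267 and 0.0557).

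For Schisandrae Fructus 3 of 10 were called between the high and the low dose, where 0.189% of all genes were. SLC38A4 averaged 5.30 ± 0.489 CPM at the high and 3.27 CPM at the low dose and rose by 0.69 ± 0.16, and SLC6A20 averaged 4.32 and 6.64 CPM and fell by 0.64 ± 0.11 (adjusted p = 0.0387 and 0.00215, edgeR). SLC38A11 was at 10.9, 10.9 and 10.8 CPM at the high dose, against 13.5, 13.7 and 15.5 CPM at the low dose, and fell by 0.39 ± 0.09 (adjusted p = 0.032, edgeR). It is the low dose of SLC38A11 that lay above the vehicle range of 10.8 to 11.97 CPM, and the high dose that lay within it or at its lower edge. Without the 2 libraries all 3 were called, where 0.519% of all genes were. With 1 library of these groups left out at a time, SLC38A11 had an adjusted p of 0.0704 to 0.399 (edgeR) and was never called. For SLC38A4 it was 0.0382 to 0.523, highest without low dose replicate 1, and 6 of 13 alternative settings called it. The call of SLC6A20 was lost without high dose replicate 1 (adjusted p = 0.108, edgeR). Without the filter on low counts SLC38A4 and SLC38A11 were not called (adjusted p = 0.109 and 0.313), and with only these 2 groups in the fit SLC38A4 was not (adjusted p = 0.0515).

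For Yijin-tang SLC38A4, SLC38A1 and SLC7A5 rose at the high against the low dose (log2 fold changes 0.47, 0.36 and 0.29, adjusted p = 0.0389, 0.026 and 0.0441, edgeR), 3 of 10 where 21.0% of all genes were called. Without the 2 libraries these were 0.23, 0.09 and 0.05 and 0 of 10 carriers were called, where 0.652% of all genes were. None of the 3 was called with only these 2 groups in the fit (adjusted p = 0.745 each), nor SLC38A4 without the filter on low counts (adjusted p = 0.0799). None of the 10 was called for Liriopis seu Ophiopogonis Tuber (0 genes called of all tested, edgeR), Longan Arillus (0.0178% of all genes) or Zizyphi Semen (0.0533%), with 0 to 2 carriers at an unadjusted p under 0.05 and none called by DESeq2. For Longan Arillus, SLC7A1, SLC38A1 and SLC7A5 were called higher at the high dose without the 2 libraries (0.22, 0.16 and 0.15), where 5.45% of all genes were called.

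**Figure D4:**
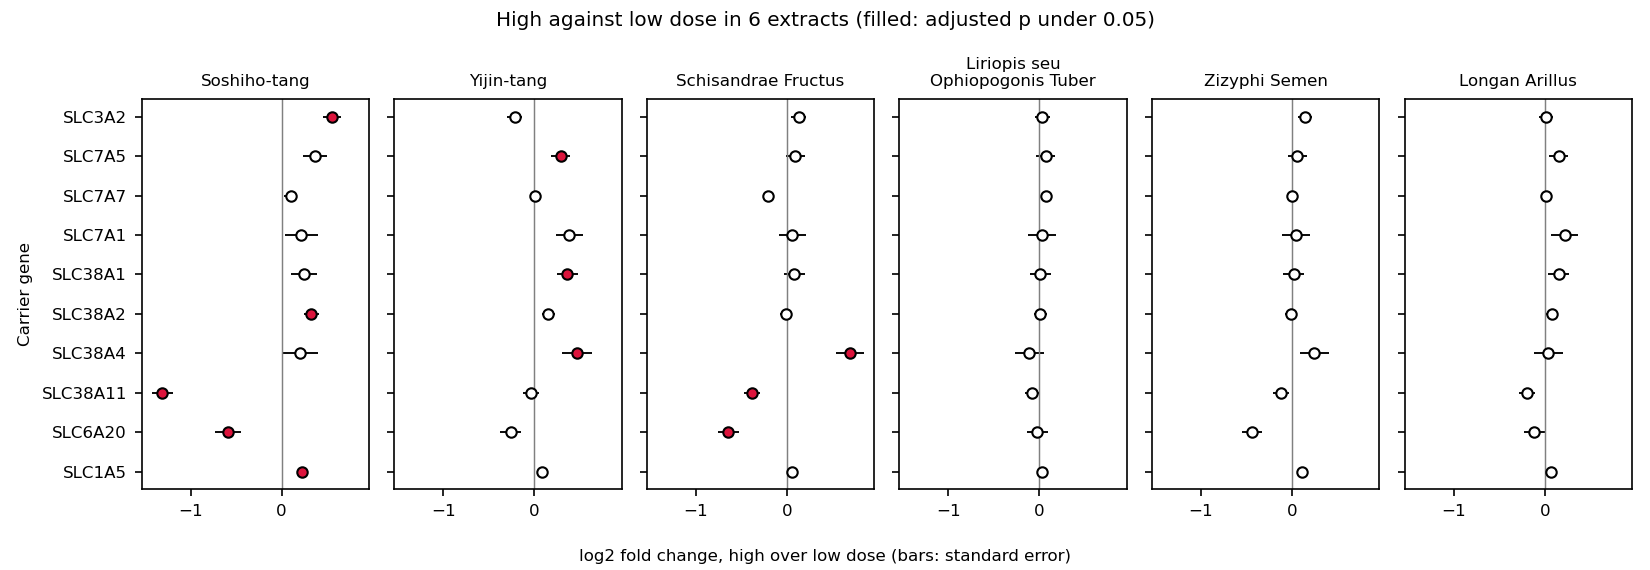
log2 fold change of the high over the low dose for the 10 carriers in 6 extracts, with bars for the standard error and filled points for an adjusted p under 0.05. Soshiho-tang has 5 filled points, with SLC38A11 at -1.31, while Schisandrae Fructus and Yijin-tang have 3 each.

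Extracts of 1 library set were compared at the high dose of 500 µg/mL. Soshiho-tang against Yijin-tang gave higher SLC3A2 (257.5 and 237 CPM with Soshiho-tang, against 176.5, 165 and 179 CPM with Yijin-tang) and SLC1A5 (964 and 906 CPM, against 856, 749 and 829 CPM). SLC38A11 was lower (4.33 and 4.88 CPM with Soshiho-tang, against 10.5, 11.1 and 11.3 CPM with Yijin-tang). The log2 differences were 0.51 ± 0.09, 0.20 ± 0.06 and -1.24 ± 0.11 (adjusted p = 0.000185, 0.0267 and 3.42e-11, edgeR), 3 of 10 where 3.72% of all genes were called. SLC1A5 was called in 7 of 12 alternative settings. Among the fits that lost its call was that without Soshiho-tang replicate 2. Its call was also lost without the filter on low counts and with only these 2 groups in the fit (adjusted p = 0.354 and 0.313, edgeR). Without the 2 libraries SLC7A1 and SLC7A5 were called as well, where 4.93% of all genes were. Schisandrae Fructus against Liriopis seu Ophiopogonis Tuber gave 1 of 10, where 0.0947% of all genes were called: SLC7A7 was at 15.8, 15.4 and 15.4 CPM, against 19.1, 18.4 and 18.6 CPM (log2 difference -0.27 ± 0.06, adjusted p = 0.0317, edgeR). With 1 library left out at a time the adjusted p was 0.0704 to 0.271 (edgeR), so the call was lost each time. It was also lost without the filter on low counts and with only these 2 groups in the fit (adjusted p = 0.0835 in the latter, edgeR). SLC38A4 differed by 0.60 ± 0.15 and SLC6A20 by -0.49 ± 0.12 without a call (adjusted p = 0.187 and 0.093), and were called without the 2 libraries, where 0.421% of all genes were. Zizyphi Semen against Longan Arillus gave 0 of 10, where 0.0237% of all genes were called.

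Other amino acid carriers were taken mainly from SLC families, 56 genes of which 34 were tested. With Soshiho-tang at the high dose, 2 rose and 2 fell against the vehicle, with a median log2 fold change of 0.07 over the 34; these 4 of 34 stand beside 7.93% of all genes called. SLC7A11, the light chain that pairs with SLC3A2 to import cystine, averaged 301 ± 10.8 CPM (n = 2) with the extract and 114 ± 16.9 CPM (n = 3) with the vehicle, a rise of 1.40 ± 0.11 (adjusted p = 3.49e-13, edgeR). SLC38A5, a sodium-coupled carrier of glutamine, rose by 0.41 ± 0.06. SLC3A1, the heavy chain of the cystine and dibasic carrier of kidney and intestine, fell by 2.30 ± 0.43 at about 1 CPM, and the mitochondrial serine carrier family member SFXN2 fell by 0.20 ± 0.05 (adjusted p = 1.27e-05, 0.000236 and 0.0112, edgeR). SLC7A11 was the 1 of 34 called at the high doses of Schisandrae Fructus (0.75 ± 0.10, where 0.693% of all genes were called), Yijin-tang (0.70 ± 0.10, 1.05%) and Longan Arillus (0.51 ± 0.10, 0.0829%). Its partner SLC3A2 differed by 0.25, 0.11 and 0.12 in the same comparisons and was not called with all libraries. Without the 2 libraries that stood apart, SLC3A2 was called with Schisandrae Fructus (0.26 ± 0.04) and not with Yijin-tang or Longan Arillus.

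Of 18 regulators and targets of the amino acid response, 5 rose and 0 fell with Soshiho-tang at the high dose, with a median log2 fold change of 0.09 over the list, where 4.17% of all genes were called higher and 3.76% lower. TRIB3, a pseudokinase that ATF4 induces, rose by 0.59 ± 0.09, DDIT4, an inhibitor of mTORC1, by 0.57 ± 0.14, PPP1R15A, the phosphatase subunit that reverses eIF2 phosphorylation, by 0.46 ± 0.13, and asparagine synthetase (ASNS) by 0.30 ± 0.09 (adjusted p = 7.24e-06, 0.0055, 0.0244 and 0.0216, edgeR). Of 20 cytosolic aminoacyl-tRNA synthetases 4 rose and 0 fell in the same comparison. Of 21 genes that sense amino acids upstream of mTORC1, 2 fell, the sestrins SESN1 (by 0.75 ± 0.06) and SESN3 (by 0.70 ± 0.19; adjusted p = 2.96e-12 and 0.0161, edgeR), a share near the 7.93% of all genes called. At the high dose of Schisandrae Fructus none of these 3 lists held a called gene, where 0.693% of all genes were called.

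In the Aucklandiae Radix high dose library, 9 of the 18 response genes were at least 1.5-fold above the vehicle mean and 1 was below it, with a median log2 ratio of 0.56, against -0.02 over all genes tested, of which 12.8% were above and 14.9% below the line. Chosen after their values were seen, ATF3 was at 29.2 CPM, against a vehicle mean of 3.89 CPM, DDIT3 (CHOP) at 25.8 against 5.85 CPM, and ASNS at 154 against 52.2 CPM. Of the 34 other carriers 11 were above and 8 below the line, where 27.8% of all genes were past it. SLC7A11 was at 435 CPM, against a vehicle mean of 114 CPM, while the arginine carrier SLC7A2 was at 5.56 against 15.4 CPM and the neutral carrier SLC43A1 at 10.1 against 33.3 CPM. Of 8 lysosomal and other intracellular carriers 5 were above the line and 0 below, with a median log2 ratio of 0.73. In the Polygalae Radix high dose library 1 of the 18 response genes was above and 1 below the line (median log2 ratio -0.09), and ASNS was at 18.5 CPM, against a vehicle mean of 52.2 CPM, and 8 of 20 tRNA synthetases were below the line, where 7.04% of all genes were past it either way.

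**Figure D5:**
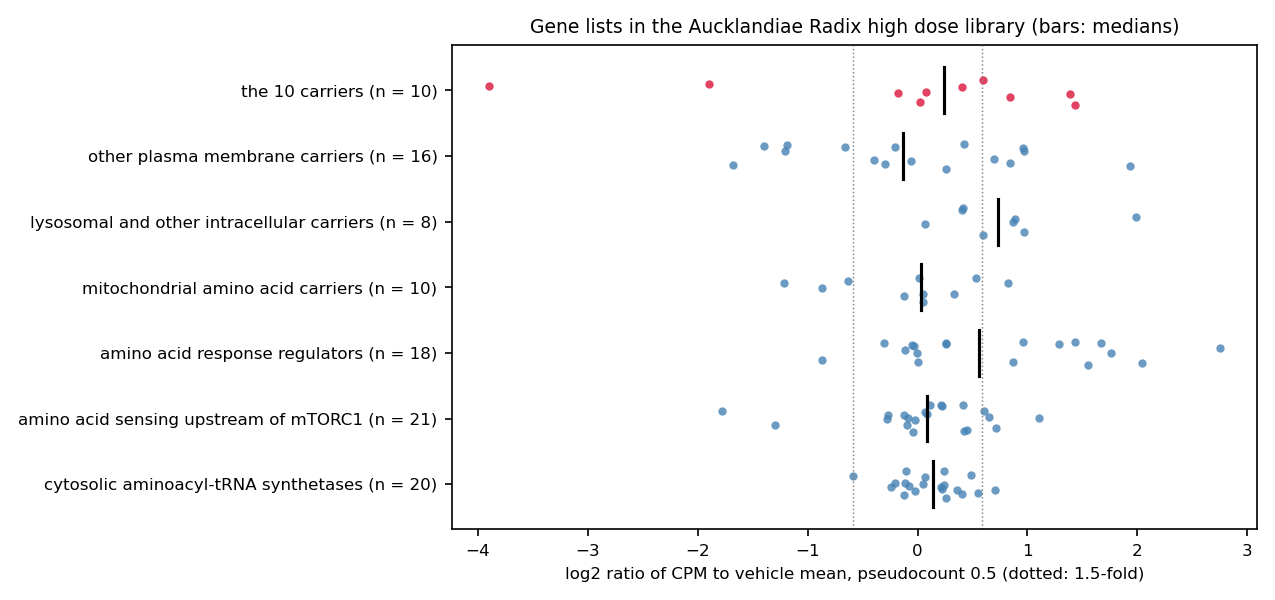
log2 ratio of CPM to the vehicle mean (pseudocount 0.5) in the Aucklandiae Radix high dose library for 7 gene lists, with a point per gene, a bar at each median and dotted lines at 1.5-fold. Of the 10 carriers, 4 lie above and 2 below the lines, and the medians of the response regulators (0.56) and of the lysosomal and other intracellular carriers (0.73) lie to the right of 0.

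Patterns over the 25 group means were compared by Pearson correlation of log2 CPM, as a description, since all groups share the cell line and several share a library set. Over all 25 means SLC7A5 and SLC1A5 ran most alike among the 10 (r = 0.953) and SLC3A2 and SLC38A11 most opposite (r = -0.96). Over 24 means, without the Aucklandiae Radix high dose, these were 0.864 and -0.844, and other pairs led: SLC7A1 with SLC38A1 (0.906) and SLC6A20 with SLC1A5 (-0.847). SLC3A2 and SLC7A5 had r = 0.805 over 25 means, which was 0.366 over the 24. Without both libraries that stood apart it was 0.873 over 25 means, and that of SLC7A1 with SLC38A1 was 0.631 in place of 0.746. The 24 means still hold both of those libraries, and their part in the values over 24 means was not tested. Among 9074 genes with at least 5 CPM, the closest to SLC3A2 were TNFRSF12A, PLK3 and DVL1 (r = 0.975, 0.972 and 0.966). SLC38A2 was closest to PAQR5 (0.979), SLC7A5 to UNC13D (0.96), SLC38A11 to DPYSL2 (0.988), SLC1A5 to ITGB7 (0.976), SLC38A4 to KAT2A (0.951), SLC38A1 to SEL1L3 (0.941), SLC7A1 to POM121 (0.883) and SLC6A20 to PROX1 (0.827). SLC7A7, the least variable carrier, reached at most 0.64, with ANP32A. Of the 30 genes found, 3 per carrier, 8 were found again without the Aucklandiae Radix high dose, among them all 3 for SLC3A2.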

How the data were processed

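Per the labels' protocols, mRNA libraries were made with a directional kit and sequenced as paired 100 bp reads. Per the submitters' processing notes, the tools named are RSEM 1.3.3, STAR 2.7.3a, FastQC 0.11.9 and Trim Galore 0.6.5, with GRCh38 as the build. The annotation release and the strand setting of the counting are not given in the sources used here. The authors deposited a table of unnormalized expected counts for each gene in all 60 libraries.

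The 10 carriers and all gene lists were chosen with earlier results of these data known. Expected counts were rounded to whole numbers. In R 4.3.3, edgeR 4.0.16 kept 16890 genes by filterByExpr, scaled libraries by TMM (factors 0.899 to 1.059) and fitted 1 quasi-likelihood model to 54 libraries, those of the 19 replicated groups. The group was its only term, and the biological coefficient of variation was 9.71%. It gave 27 comparisons (18 with the vehicle, 6 of high with low dose, 3 between extracts), with p-values adjusted by Benjamini-Hochberg over all genes tested and a call at an adjusted p under 0.05. CPM is TMM-scaled over all 60 libraries. A mean CPM carries its SD and a log2 fold change its SE. This SE was worked back from the quasi-likelihood test, as the absolute log2 fold change over the square root of the F statistic. The fit was tested on simulated data. Genes outside the 10 were named by rule as the largest called changes of each list, at most 4 per comparison at 1 CPM or more, and the 3 closest patterns per carrier. Genes of the 1-library groups were named after their values were seen, as were SESN1 and SESN3. Replicate numbers did not pair samples: in none of 27 comparisons did every same-numbered pair deviate together with r over 0.1. Alternatives were RLE scaling, DESeq2 1.42.0, no filter on low counts, a replicate block, a prior count of 2, only the compared groups in the fit, each library left out in turn, and a fit without both libraries that stood apart. Other scales and another pseudocount for the 1-library groups, and likeness without the Aucklandiae Radix high dose, were chosen after seeing the data. Poisson intervals cover counting error only.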

Additional observations from a re-analysis of the deposited data

Results flagged for a closer look

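Effects of extracts of the same library set, at the same dose, differed by the test of the difference itself for 4 values. At the high dose, Soshiho-tang against Yijin-tang differed by 0.51 for SLC3A2, by 0.20 for SLC1A5 and by -1.24 for SLC38A11 (log2, adjusted p = 0.000185, 0.0267 and 3.42e-11, edgeR). Schisandrae Fructus against Liriopis seu Ophiopogonis Tuber differed by -0.27 for SLC7A7 (adjusted p = 0.0317, edgeR). This last call was lost whichever library of the compared groups was left out. Every library of the first extract lay on 1 side of every library of the second for all 4, which were picked as called. Of the 10 carriers, 6 lay wholly above and 3 wholly below for Soshiho-tang against Yijin-tang. For Schisandrae Fructus against Liriopis seu Ophiopogonis Tuber 3 lay wholly above and 3 wholly below. The share of all genes that lay so was not counted. These carriers were chosen with earlier results known, so the values describe and do not test. No group held enough libraries for a check of single outlying values.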

How the results depend on the processing

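Over all settings, no called fold change of the 10 carriers changed sign. The carriers were called 10 times against the vehicle, 11 times between high and low dose and 4 times between extracts. Fitting the 2 compared groups alone, these counts were 5, 4 and 2, and for the other carriers 4 against the vehicle and 3 between doses, in place of 14 and 10. Without both libraries that stood apart the carriers were called 24 times against the vehicle and 8 times between extracts, and the other carriers 48 times against the vehicle. In that fit more of all genes were called too, in each comparison with the vehicle except the low dose of Yijin-tang. At the high dose of Yijin-tang 7.16% of all genes were called in place of 1.05%, and at its low dose 1.96% in place of 12.1%. For the other settings, shares of all genes are not given beside these counts. Without a filter on low counts, carriers were called 7 times between doses and 2 times between extracts, and the other carriers 9 times against the vehicle. DESeq2 called the other carriers 22 times against the vehicle. With each library left out in turn, carriers were called 8 to 13, 8 to 15 and 3 to 5 times, and the other carriers 5 to 20 and 3 to 14 times. Lowest for the other carriers were the fits without vehicle replicate 3 (5), vehicle replicate 1 (7), Yijin-tang low dose replicate 2 (3) and Yijin-tang high dose replicate 2 (6). Of the 30 most similar genes, 18 were found again without both libraries that stood apart and 8 without the Aucklandiae Radix high dose. Fewer samples enter the 2-group and left-out fits, and other causes were not tested. The samples share only a replicate number: with the replicate number as a block, carriers were called 10, 11 and 5 times and the other carriers 13 and 10 times. With group means of 0.3 to 15 CPM, SLC38A4, SLC38A11 and SLC6A20 were the lowest of the 10 under the vehicle. In the Aucklandiae Radix high dose library SLC38A11 and SLC38A4 rested on few counts. The vehicle's library set differs from that of every extract.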
